A study of Mus musculus with 2 samples.

Results

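Cytochrome P450 enzymes of families Cyp1 to Cyp4 were taken as every gene whose official mouse symbol is Cyp followed by a family number from 1 to 4, a letter and digits, with pseudogenes left out. RefSeq's gene table listed 80 such genes, and 75 of them had a probe matched through its transcript accession, among 20284 genes on the array. Cyp2a5, Cyp2c40, Cyp2c69, Cyp2j12 and Cyp3a41a had no matched probe. The study compared the livers of fibrotic mice given recombinant TSG-6, a secreted protein that binds hyaluronan and dampens inflammation, with those of fibrotic mice given PBS. All animals were male C57BL/6 mice, the agent was given intravenously, and livers were taken 2 weeks later. RNA from the 3 mice of a group was mixed in equal parts and hybridised to 1 one-colour array per group, so both groups carried fibrosis and no unfibrotic liver was measured. How the fibrosis was induced is not given in the sources used here. With 1 pooled array per group there is no replicate spread to test against, and the differences below describe these 2 pools.

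P450 enzymes of these families are haem proteins of the endoplasmic reticulum that take electrons from a reductase and oxidise drugs, pollutants, steroids, fatty acids and bile acids. Most are made in hepatocytes, many of them in the cells around the central vein, and nuclear receptors and the aryl hydrocarbon receptor set their transcription. They are known as genes whose liver expression drops in inflammation and in chronic liver disease and differs between male and female mice. Many members arose by tandem duplication and are close copies, so a probe designed for one may also bind its neighbour's transcript. The probe sequences were not used here, and the value of a single member is therefore uncertain. Counts and medians over members may also take the same transcript more than once.

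Values are given as relative signal, which is the processed spot signal divided by the array's 75th percentile, and as the log2 difference of TSG-6 minus PBS. Of the 75 genes on the array, 56 were read above background on both arrays from spots without an outlier flag. Another 11 had only flagged spots. By their unflagged probes, 7 were above background on neither array and 1 on the TSG-6 array alone; 1 of the 7, Cyp2j8, had a flagged probe above background on both. Flagged spots were more common among the 104 spots of these genes (10.6% in PBS and 29.8% in TSG-6) than among all 59305 spots (3.40% and 6.44%). No spot of these genes was saturated. Over 327 probes spotted more than once, the log2 difference had a pooled SD between spots of 0.126, which covers the noise between spots and not that between mice.

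The families were higher in the TSG-6 pool as a group. Of the 56 measured members, 14 (25%) were at least 2-fold higher in TSG-6 than in PBS, against 2.94% of all 15151 measured genes. None was at least 2-fold lower, against 4.29% of all genes. The median log2 difference of the members was 0.57, with a middle 50% from 0.33 to 0.92, beside a median of 0.08 and a middle 50% from -0.23 to 0.33 over all measured genes. In all, 47 members were above 0, and 39 of these stayed above 0 in every one of the 11 processing alternatives that measured them. Under spike-in scaling, which lowers the median of all genes by 0.38, 8 members (14.3%) were higher by 2-fold or more and 2 (3.57%) lower by as much, beside 1.24% and 9.35% of all genes. Median scaling left 12 higher and 1 lower, beside 2.24% and 5.37% of all genes. The gap between the members' median and that of all genes was 0.49 in the main setting and lay between 0.39 and 0.51 in every alternative. It is fixed under the percentile, median and spike-in scalings and with the deposited table, which shift all genes of an array alike. Only the other alternatives could move it.

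Higher values were found at both ends of the brightness range. The 28 members with a mean log2 relative signal of at least 2 had a median difference of 0.59, and 5 of them were at least 2-fold higher, whereas 0.947% of the 3273 genes of that brightness were. The 28 dimmer members had a median of 0.42, and 9 were at least 2-fold higher, whereas 3.49% of the 11878 dimmer genes were. The median difference over all genes was 0.18 in the brighter class and 0.03 in the dimmer one. Hepatocyte markers were also higher after TSG-6: over 7 of 8 listed genes the median difference was 0.37, with a range of 0.17 to 0.43, and their summed relative signal was 114.2 in PBS and 146.1 in TSG-6. Of the 56 P450 genes, 36 lay above the highest of these markers and 9 below the lowest. Under spike-in scaling the markers other than Fgb and Asgr1 were below 0, the lowest being Hnf4a at -0.20. The median of all genes was then -0.30, below each of these markers. In a whole-liver pool, more cells of a type and more RNA per cell cannot be told apart.

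Other cell types also differed between the pools. All 5 measured markers of stellate cells and myofibroblasts, of 6 listed, were lower in TSG-6, with a median of -1.07 and summed relative signals of 25.2 in PBS and 12.3 in TSG-6. All 7 measured neutrophil markers, of 8 listed, were higher, with a median of 3.19 and sums of 30.3 and 52.9. They did not give 1 size. Ltf, Ngp, Mpo and Elane, at relative signals of 0.0360 to 0.539 in PBS, differed by 3.19 to 3.89. The brighter S100a8, S100a9 and Csf3r differed by 0.18 to 0.85. The 2 exocrine pancreas markers above background on both arrays, of 4 listed, were lower, with sums of 1.21 and 0.349. Cholangiocyte markers had a median of -0.29 over 3 of 5, macrophage markers of 0.19 over 4 of 5 and endothelial markers of 0.27 over all 5. The kidney markers Umod and Slc12a1 were above background on neither array. Of the markers listed for intestine, Vil1 (0.0893 and 0.0695) differed by -0.36 and Fabp2 (13.3 and 12.4) by -0.10. Fabp2 was about as bright in PBS as the hepatocyte marker Apob (13.6), and which cells gave its signal was not tested. The part of cell composition in the P450 differences was not tested.

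**Figure D1:**
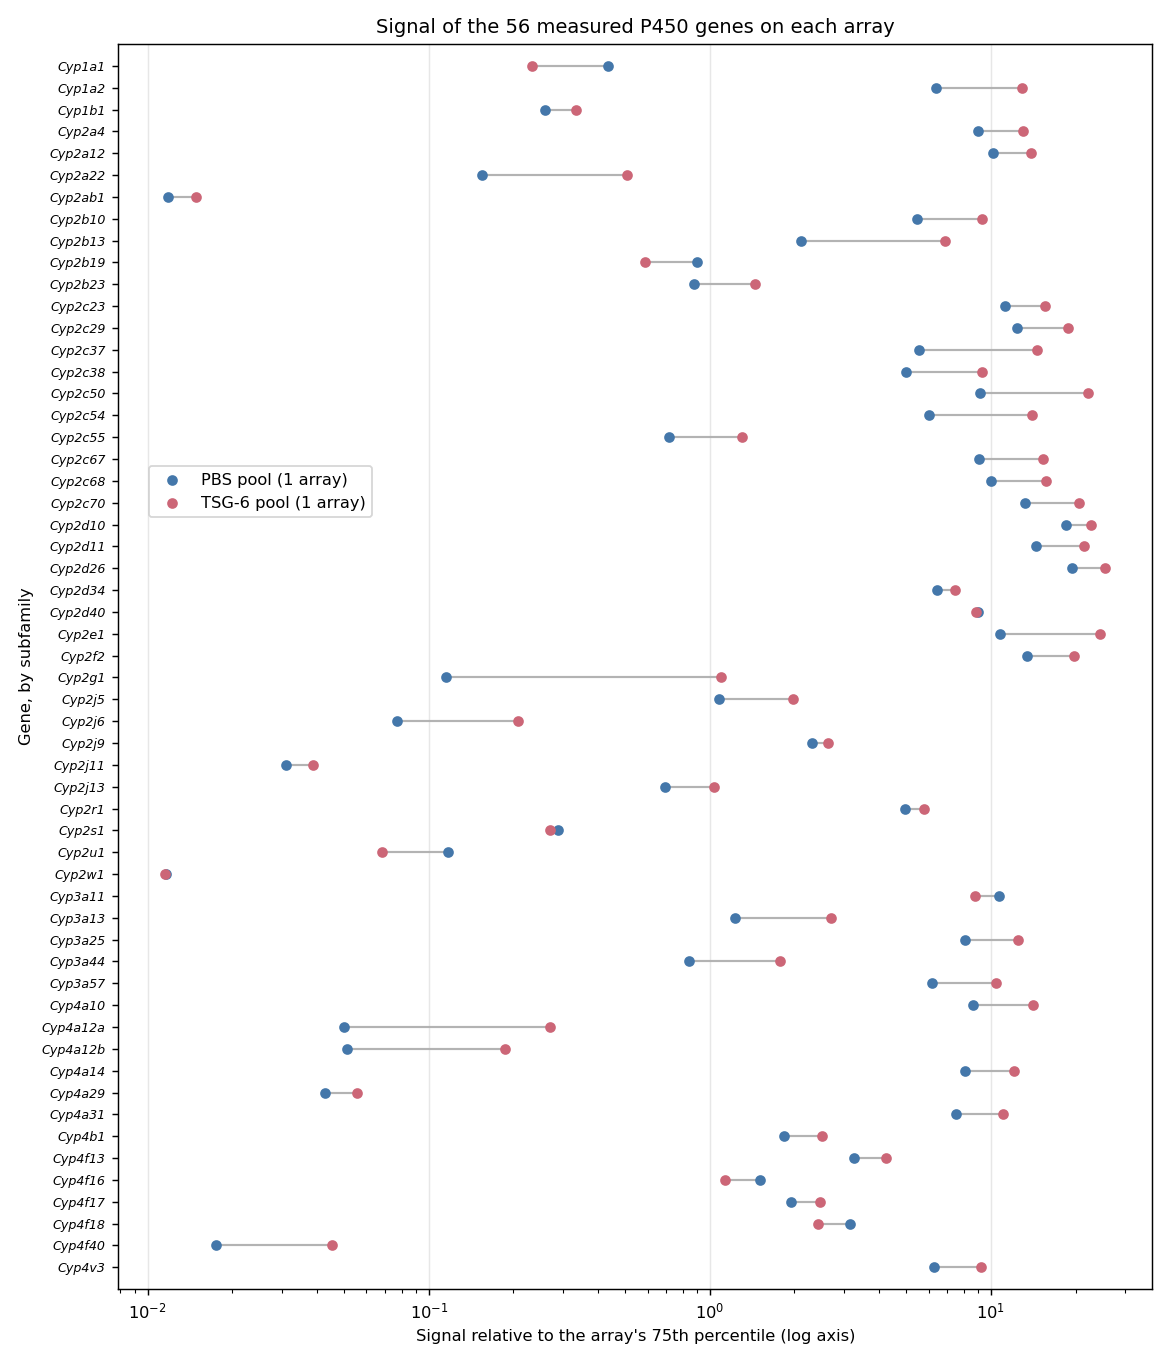
Relative signal (log axis, signal divided by the array's 75th percentile) of each of the 56 measured P450 genes in the PBS pool (blue) and the TSG-6 pool (red), 1 array each, with a line joining both values of a gene. The red point lies to the right of the blue one for 47 genes, and the widest gap is that of Cyp2g1, from 0.115 to 1.1.

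**Figure D2:**
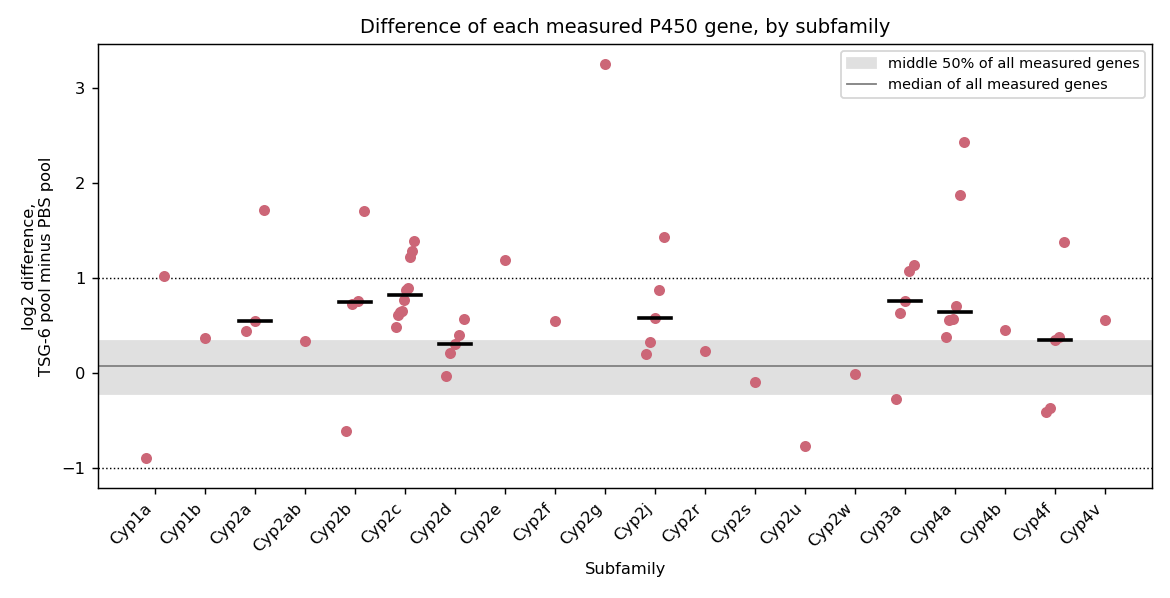
Log2 difference of TSG-6 minus PBS for each measured P450 gene (points), by subfamily, with a black bar at the median of subfamilies of at least 3 measured genes, a grey band for the middle 50% of all measured genes and dotted lines at 2-fold. Cyp2c points all lie above the grey band, from 0.48 to 1.39, while Cyp2d points run from -0.03 to 0.57.

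The Cyp1 family metabolises planar aromatic compounds and is induced through the aryl hydrocarbon receptor. Its members went different ways. Cyp1a2, the hepatocyte enzyme that clears caffeine, had a relative signal of 6.37 in PBS and 12.9 in TSG-6, a log2 difference of 1.02 or 2.02-fold. This value sat at the 2-fold line and was past it in 7 of 11 alternatives. Cyp1a1, the inducible form, was lower in TSG-6, at 0.433 against 0.232, a difference of -0.90, and it stayed below 0 in every alternative. Cyp1b1, an extrahepatic form found in mesenchymal cells, was at 0.258 and 0.333, a difference of 0.37. The receptor's own transcript, Ahr, differed by 0.18. Cyp1a1 and Cyp1a2 are head-to-head neighbours, and their windows are printed because the pair differed in opposite directions. The windows are the 150 bases before each start in RefSeq's GRCm38.p6 assembly, Cyp1a2 at chr9:57683656-57683805 on the minus strand and Cyp1a1 at chr9:57697463-57697612 on the plus strand, with the TATA box in capitals.
Cyp1a2: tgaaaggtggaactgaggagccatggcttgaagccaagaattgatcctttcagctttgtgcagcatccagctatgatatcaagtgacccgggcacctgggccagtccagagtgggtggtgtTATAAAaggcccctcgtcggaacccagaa
Cyp1a1: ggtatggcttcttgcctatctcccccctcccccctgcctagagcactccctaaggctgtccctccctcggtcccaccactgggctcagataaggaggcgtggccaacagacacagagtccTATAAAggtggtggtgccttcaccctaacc
Both windows carried a TATA box. A global alignment of the 250 bases before each start gave 51.6% identical positions, where the lowest of the 193 pairs compared within subfamilies was 50%, so little of this region is shared.

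The Cyp2a, Cyp2b, Cyp2f, Cyp2g, Cyp2s and Cyp2t genes stand together in 1 cluster on chromosome 7. It held the widest spread. Cyp2g1, a P450 best known from the olfactory mucosa, had the largest difference of all measured members, with a relative signal of 0.115 in PBS and 1.1 in TSG-6, 9.52-fold higher. Its log2 difference of 3.25 lay between 2.88 and 3.54 over the alternatives. Cyp2a22 was 3.27-fold higher, at 0.155 against 0.507. Its relatives Cyp2a12 (10.2 and 13.9) and Cyp2a4 (8.96 and 13.0), both testosterone hydroxylases, differed by 0.45 and 0.54. A second Cyp2a4 probe, flagged in TSG-6, gave 0.55.

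Within Cyp2b, the female-biased Cyp2b13 was 3.25-fold higher, at 2.11 in PBS and 6.86 in TSG-6. Cyp2b9, its near copy, had only a flagged spot, which read 1.05 and 3.06, a log2 difference of 1.55. Cyp2b10, the classic target of the receptor CAR, was at 5.47 and 9.27, a difference of 0.76. Cyp2b23 was at 0.875 and 1.45, a difference of 0.73. Cyp2b19, an arachidonic acid epoxygenase of the epidermis, was lower, at 0.897 against 0.587, a difference of -0.61. The median over the 4 measured Cyp2b genes was 0.74 and that over the 3 Cyp2a genes 0.54. Cyp2f2, an enzyme of periportal hepatocytes, differed by 0.55 (13.4 and 19.7), and Cyp2s1 by -0.09 (0.289 and 0.271). Cyp2t4 was above background on neither array.

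Upstream windows of 2 pairs in this cluster are printed to show how alike the copies are. Cyp2b13 (chr7:26061345-26061494, plus strand) and Cyp2b9 (chr7:26173259-26173408, plus strand) differed by similar amounts. Cyp2a22 (chr7:26939387-26939536, minus strand) and Cyp2a12 (chr7:27028940-27029089, plus strand) differed by 1.71 and 0.45. Each is the 150 bases before the start in GRCm38.p6, with the TATA box in capitals in Cyp2a22 and Cyp2a12. The windows of Cyp2b13 and Cyp2b9 held no TATAAA.
Cyp2b13: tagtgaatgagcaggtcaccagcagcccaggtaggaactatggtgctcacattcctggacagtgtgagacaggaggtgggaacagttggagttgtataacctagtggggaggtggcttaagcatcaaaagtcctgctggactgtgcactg
Cyp2b9: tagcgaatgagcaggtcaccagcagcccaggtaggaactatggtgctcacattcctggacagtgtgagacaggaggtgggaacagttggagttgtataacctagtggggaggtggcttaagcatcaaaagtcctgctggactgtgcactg
Cyp2a22: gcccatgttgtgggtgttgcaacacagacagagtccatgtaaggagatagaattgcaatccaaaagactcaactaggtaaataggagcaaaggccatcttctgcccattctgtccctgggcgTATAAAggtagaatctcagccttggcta
Cyp2a12: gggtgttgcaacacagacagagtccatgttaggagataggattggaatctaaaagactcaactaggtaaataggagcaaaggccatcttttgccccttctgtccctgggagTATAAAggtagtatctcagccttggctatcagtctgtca
In a global alignment of the 250 bases before the start, Cyp2b13 and Cyp2b9 were identical at 99.2% and Cyp2a22 and Cyp2a12 at 86.4% of positions.

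The Cyp2c subfamily, whose enzymes epoxidise arachidonic acid and hydroxylate drugs and bile acids, was higher throughout. All 10 measured genes, of 13 on the array, lay above 0, from 0.48 to 1.39, with a median of 0.82. Its median stayed at or above 0.44 in every alternative. It was the highest of the 8 subfamilies with at least 3 measured genes in the main setting, but Cyp2b was above it with quantile normalization (0.67 against 0.62), Cyp3a with normexp (0.76 against 0.75), and both Cyp3a (0.75) and Cyp2b (0.74) without the filter on dim probes (0.71). Cyp2c37 had a relative signal of 5.56 in PBS and 14.6 in TSG-6, 2.62-fold higher. Cyp2c50 was 2.43-fold higher, at 9.12 and 22.1. Cyp2c54 was 2.33-fold higher, at 6.03 and 14.0. These 3 stand next to one another and were the subfamily's members past 2-fold. Cyp2c37 was past 2-fold in all 11 alternatives, Cyp2c54 in 10 and Cyp2c50 in 9. None of the alternatives read a second, dimmer Cyp2c37 probe, flagged in TSG-6, which was at 3.87 and 5.84, a difference of 0.59. Flagged Cyp2c54 probes gave 1.76 and 2.55.

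The other Cyp2c genes had smaller differences. Cyp2c38 was at 5.0 and 9.28, a difference of 0.89, and Cyp2c55 at 0.715 and 1.31, a difference of 0.87. Cyp2c67 (9.03 and 15.3) differed by 0.76, Cyp2c68 (10 and 15.8) by 0.65 and Cyp2c29 (12.4 and 18.9) by 0.61. Cyp2c70, the enzyme that makes the muricholic acids of mouse bile, differed by 0.64 (13.2 and 20.6). Cyp2c23, an epoxygenase that lies apart from the others on the chromosome, differed by 0.48 (11.2 and 15.6). Cyp2c29 is the member with 10 replicate spots, of which 4 were unflagged on both arrays. Those 4 gave a mean difference of 0.60 with an SD of 0.224 between spots and a range of 0.28 to 0.77. Cyp2c39 had only flagged spots, with a difference of 0.80, and Cyp2c65 and Cyp2c66, known from the intestine, were above background on neither array.

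Windows of 3 Cyp2c genes are shown, those of Cyp2c37 and Cyp2c50, which flank Cyp2c54, and that of the next gene of the cluster. They are Cyp2c37 (chr19:39992274-39992423, plus strand), Cyp2c50 (chr19:40089529-40089678, plus strand) and Cyp2c70 (chr19:40187287-40187436, minus strand). The capitals mark CAAAGTCCA, a sequence bound selectively by the liver factor HNF4, and TTTATA, which is TATAAA on the other strand.
Cyp2c37: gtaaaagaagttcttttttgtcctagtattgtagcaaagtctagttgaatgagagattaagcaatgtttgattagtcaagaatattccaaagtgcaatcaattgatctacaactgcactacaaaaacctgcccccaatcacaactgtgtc
Cyp2c50: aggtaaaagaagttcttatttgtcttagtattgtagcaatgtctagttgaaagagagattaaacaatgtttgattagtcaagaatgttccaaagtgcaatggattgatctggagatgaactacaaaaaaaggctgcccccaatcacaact
Cyp2c70: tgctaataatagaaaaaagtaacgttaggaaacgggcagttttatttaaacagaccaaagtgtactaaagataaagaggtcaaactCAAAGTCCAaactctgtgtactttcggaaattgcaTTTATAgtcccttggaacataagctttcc
Cyp2c37 and Cyp2c50 were identical at 86.0% of 250 upstream positions, and each at less than 60% with Cyp2c70. CAAAGTCCA was present in the window of Cyp2c70 and not in those of Cyp2c37 and Cyp2c50.

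Cyp2d, the subfamily related to the human debrisoquine hydroxylase, had small differences. Its 5 measured genes, of 8 on the array, ran from -0.03 to 0.57 with a median of 0.30, and none was past 2-fold. Cyp2d26 was at 19.4 and 25.5, a difference of 0.40, and Cyp2d10 at 18.5 and 22.8, a difference of 0.30. Cyp2d11 (14.5 and 21.4) differed by 0.57, Cyp2d34 (6.43 and 7.42) by 0.21 and Cyp2d40 (9.0 and 8.82) by -0.03. The ranges of Cyp2c and Cyp2d overlapped between 0.48 and 0.57, where Cyp2c23 and Cyp2d11 lay. The male-biased steroid hydroxylase Cyp2d9 had only a flagged spot, with a difference of 0.61, as had Cyp2d12 (0.44) and Cyp2d22 (0.50). Under spike-in scaling the Cyp2d median was -0.08.

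Cyp2e1, the pericentral enzyme that oxidises ethanol, paracetamol and carbon tetrachloride, had a relative signal of 10.8 in PBS and 24.5 in TSG-6. It was 2.27-fold higher, and past 2-fold in 9 of 11 alternatives. A second probe, flagged on both arrays, read 6.51 and 16.4, a difference of 1.33.

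The Cyp2j enzymes make epoxides of arachidonic acid. Their 5 measured genes, of 6 on the array, ran from 0.20 to 1.43 with a median of 0.57. Cyp2j6 was 2.70-fold higher, at 0.0769 and 0.207. Another probe, flagged in TSG-6, read 1.63 and 2.19, a difference of 0.42, so the probes of this gene did not give 1 size. Cyp2j5 was at 1.08 and 1.97, a difference of 0.87. Cyp2j13 (0.693 and 1.03) differed by 0.57, Cyp2j11 (0.0310 and 0.0388) by 0.32 and Cyp2j9 (2.30 and 2.64) by 0.20. Cyp2j8 was not above background on its unflagged probe, and a flagged one gave 0.45.

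The remaining single-gene subfamilies of Cyp2 had no member past 2-fold. Cyp2u1, a fatty acid hydroxylase, was lower, at 0.117 against 0.0683, a difference of -0.77 that stayed below 0 in every alternative. Cyp2r1, a vitamin D hydroxylase, was at 4.94 and 5.78, a difference of 0.23. Cyp2ab1 (0.0118 and 0.0148) differed by 0.33 and Cyp2w1 (0.0117 and 0.0115) by -0.01. Cyp2r1, Cyp2ab1 and Cyp2w1 changed side of 0 between scalings.

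Cyp3a enzymes carry much of the liver's drug oxidation and respond to the receptor PXR. The 5 measured genes, of 8 on the array, had a median of 0.75 and ran from -0.28 to 1.13. Cyp3a13 was 2.19-fold higher, at 1.23 and 2.69, while another probe, flagged in TSG-6, read 7.63 and 10.6, a difference of 0.48. The female-biased Cyp3a44 was 2.11-fold higher, at 0.840 and 1.77. Cyp3a57 (6.18 and 10.4) differed by 0.75 and Cyp3a25 (8.09 and 12.5) by 0.63.

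Cyp3a11, the main Cyp3a enzyme of mouse liver, was the member whose probes lay on both sides of 0. The unflagged probe read 10.7 in PBS and 8.79 in TSG-6, a difference of -0.28. The other, flagged in TSG-6, read 11.8 and 23.3, a difference of 0.98. No direction is given for this gene, although the counts, ranges and medians of the main setting take it at the -0.28 of its unflagged probe. Cyp3a16, Cyp3a41b and Cyp3a59 had only flagged spots, with differences of 0.34, 1.26 and 0.68.

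Windows of 3 Cyp3a genes are printed because they differ at a CAAAGTCCA sequence. They are Cyp3a11 (chr5:145879855-145880004), Cyp3a41b (chr5:145584731-145584880) and Cyp3a44 (chr5:145805875-145806024), all on the minus strand. Capitals mark CAAAGTCCA and TATAAA where a window holds them.
Cyp3a11: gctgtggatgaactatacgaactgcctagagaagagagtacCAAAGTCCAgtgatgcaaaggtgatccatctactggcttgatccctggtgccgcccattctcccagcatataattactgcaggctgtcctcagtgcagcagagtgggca
Cyp3a41b: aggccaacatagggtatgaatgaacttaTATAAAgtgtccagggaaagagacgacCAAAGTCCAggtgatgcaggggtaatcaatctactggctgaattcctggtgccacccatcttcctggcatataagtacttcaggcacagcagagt
Cyp3a44: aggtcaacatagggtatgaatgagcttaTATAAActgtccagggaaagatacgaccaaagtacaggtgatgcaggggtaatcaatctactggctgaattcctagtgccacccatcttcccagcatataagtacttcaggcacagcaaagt
Cyp3a41b and Cyp3a44 were identical at 94.8% of 250 upstream positions, and Cyp3a11 and Cyp3a44 at 76.8%. Counted from 1 at the 5′ end of the sequence, Cyp3a44 differed from Cyp3a41b by C7A, which gave CAAAGTACA. What this base does for either gene was not tested.

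Cyp4a enzymes hydroxylate the far end of fatty acids and include the best known targets of the receptor PPAR-alpha. All 6 measured genes, of 8 on the array, were above 0, from 0.38 to 2.43, with a median of 0.64. Cyp4a12a, the male-biased enzyme that hydroxylates arachidonic acid, was 5.39-fold higher, at 0.0500 in PBS and 0.270 in TSG-6. Its neighbour Cyp4a12b was 3.65-fold higher, at 0.0512 and 0.187. Both were past 2-fold in all 11 alternatives, and each was read from 1 probe. The PPAR-alpha targets differed less. Cyp4a10 was at 8.65 and 14.1, a difference of 0.70, and its 3 unflagged probes ran from 0.70 to 1.31. Cyp4a14 (8.10 and 12.0) differed by 0.57 and Cyp4a31 (7.50 and 11.0) by 0.56, with flagged Cyp4a31 probes at 1.42 and 1.64. Cyp4a29 (0.0427 and 0.0554) differed by 0.38. Cyp4a32 had only a flagged spot, which read 0.900 and 2.38, a difference of 1.41, and Cyp4a30b was above background on neither array.

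Cyp4f enzymes inactivate leukotrienes and other lipid mediators, and their 5 measured genes, of 9 on the array, lay on both sides of 0. The median was 0.34 and the range -0.41 to 1.38. Cyp4f40 was 2.61-fold higher, at 0.0174 and 0.0454. Its difference was 0.53 in the lowest alternative. Cyp4f16 was lower, at 1.51 against 1.13, a difference of -0.41. Cyp4f18, the leukotriene hydroxylase of neutrophils, was at 3.15 and 2.43, a difference of -0.38, while the 7 measured neutrophil markers differed by 0.18 (S100a9) to 3.89 (Mpo). Cyp4f13 (3.25 and 4.23) differed by 0.38 and Cyp4f17 (1.95 and 2.47) by 0.34. The liver forms Cyp4f14 and Cyp4f15 had only flagged spots, at 0.68 and 0.61. Cyp4f39, a skin enzyme, was above background in TSG-6 alone and at least 1.71-fold higher there, taking the PBS signal as the lowest detected one. Cyp4f37 and Cyp4x1 were above background on neither array. Cyp4b1 (1.84 and 2.51) differed by 0.45 and Cyp4v3 (6.27 and 9.22) by 0.56.

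The subfamilies differed in their medians by less than the spread within most of them. The medians of Cyp2a, Cyp2b, Cyp2c, Cyp2j, Cyp3a and Cyp4a lay between 0.54 and 0.82, and those of Cyp2d and Cyp4f at 0.30 and 0.34. Each of the 8 medians was above that of all genes, 0.08, and the medians of Cyp2d and Cyp4f were at -0.08 and -0.03 under spike-in scaling, where that of all genes was -0.30. At the level of families, 1 of 3 Cyp1, 8 of 35 Cyp2, 2 of 5 Cyp3 and 3 of 13 Cyp4 genes were at least 2-fold higher. The share over all measured genes was 2.94%.

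Pericentral genes held 5 of the 14 members past 2-fold. Of 7 measured pericentral genes, of 8 listed, these were the ones at least 2-fold higher (Cyp1a2, Cyp2e1, Cyp2c37, Cyp2c50 and Cyp2c54). The median of the 7 was 1.19. The remaining ones were Cyp2c29 at 0.61 and Cyp3a11, whose probes did not give 1 direction. Cyp2c37, Cyp2c50 and Cyp2c54 are neighbouring copies that may share signal, and Cyp1a2 was past 2-fold in 7 of 11 alternatives. For this list and those below, the share at least 2-fold higher was 25% over all measured members and 2.94% over all measured genes. Cyp2f2, the 1 periportal gene listed, differed by 0.55. Targets of CAR and PXR, all 9 measured, had a median of 0.87 with 4 past 2-fold. These lists share Cyp2c29, Cyp2c37, Cyp2c50, Cyp2c54 and Cyp3a11, so their counts are not separate. The 3 measured PPAR-alpha targets, of 4 listed, had a median of 0.57 with none past 2-fold. Among AHR targets 1 of 3 was past 2-fold, with a median of 0.37.

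Genes with a female bias and genes with a male bias in mouse liver were both among those higher in the TSG-6 pool, and every animal was male. Of 10 female-biased genes, 3 were measured, Cyp2b13 (1.70), Cyp3a44 (1.08) and Cyp2a4 (0.54). Another 4 had only flagged spots, Cyp2b9 (1.55), Cyp3a41b (1.26), Cyp2c39 (0.80) and Cyp3a16 (0.34). Of 4 male-biased genes, 3 were measured, Cyp4a12a (2.43), Cyp4a12b (1.87) and Cyp2u1 (-0.77), and Cyp2d9 read 0.61 on a flagged spot. The levels of the lists were unlike. Relative signals of the measured female-biased genes summed to 11.9 in PBS and 21.7 in TSG-6. Those of the 3 measured male-biased genes summed to 0.218 and 0.525, so their differences come from dim signals. The flagged Cyp2d9 spot was brighter, at 4.53 and 6.90. Among 13 genes of arachidonic acid metabolism, 11 were measured, with a median of 0.57 and 3 past 2-fold (Cyp4a12a, Cyp4a12b and Cyp2j6). Another list held 9 genes known largely from tissues or cells other than the hepatocyte, Cyp2f2 among them although periportal hepatocytes also make it. Of these, 8 were measured, with a median of 0.18, and 1, Cyp2g1, was past 2-fold. Over all measured genes, 2.94% were at least 2-fold higher.

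Order along the chromosome was then examined with the gene order of RefSeq's table. Cyp2c37, Cyp2c54 and Cyp2c50, at 1.39, 1.22 and 1.28, followed each other in a cluster of 14 Cyp2c genes whose 9 measured members had a median of 0.87. Cyp4a12a and Cyp4a12b were adjacent among 10 Cyp4 genes. The cluster that runs from Cyp2s1 to Cyp2t4 mixed sizes, with Cyp2b19 at -0.61 next to Cyp2g1 at 3.25. Cyp2a22 at 1.71 lay beside Cyp2a12 at 0.45. In the Cyp2d cluster of 8 genes none of the 5 measured was past 2-fold.

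**Figure D3:**
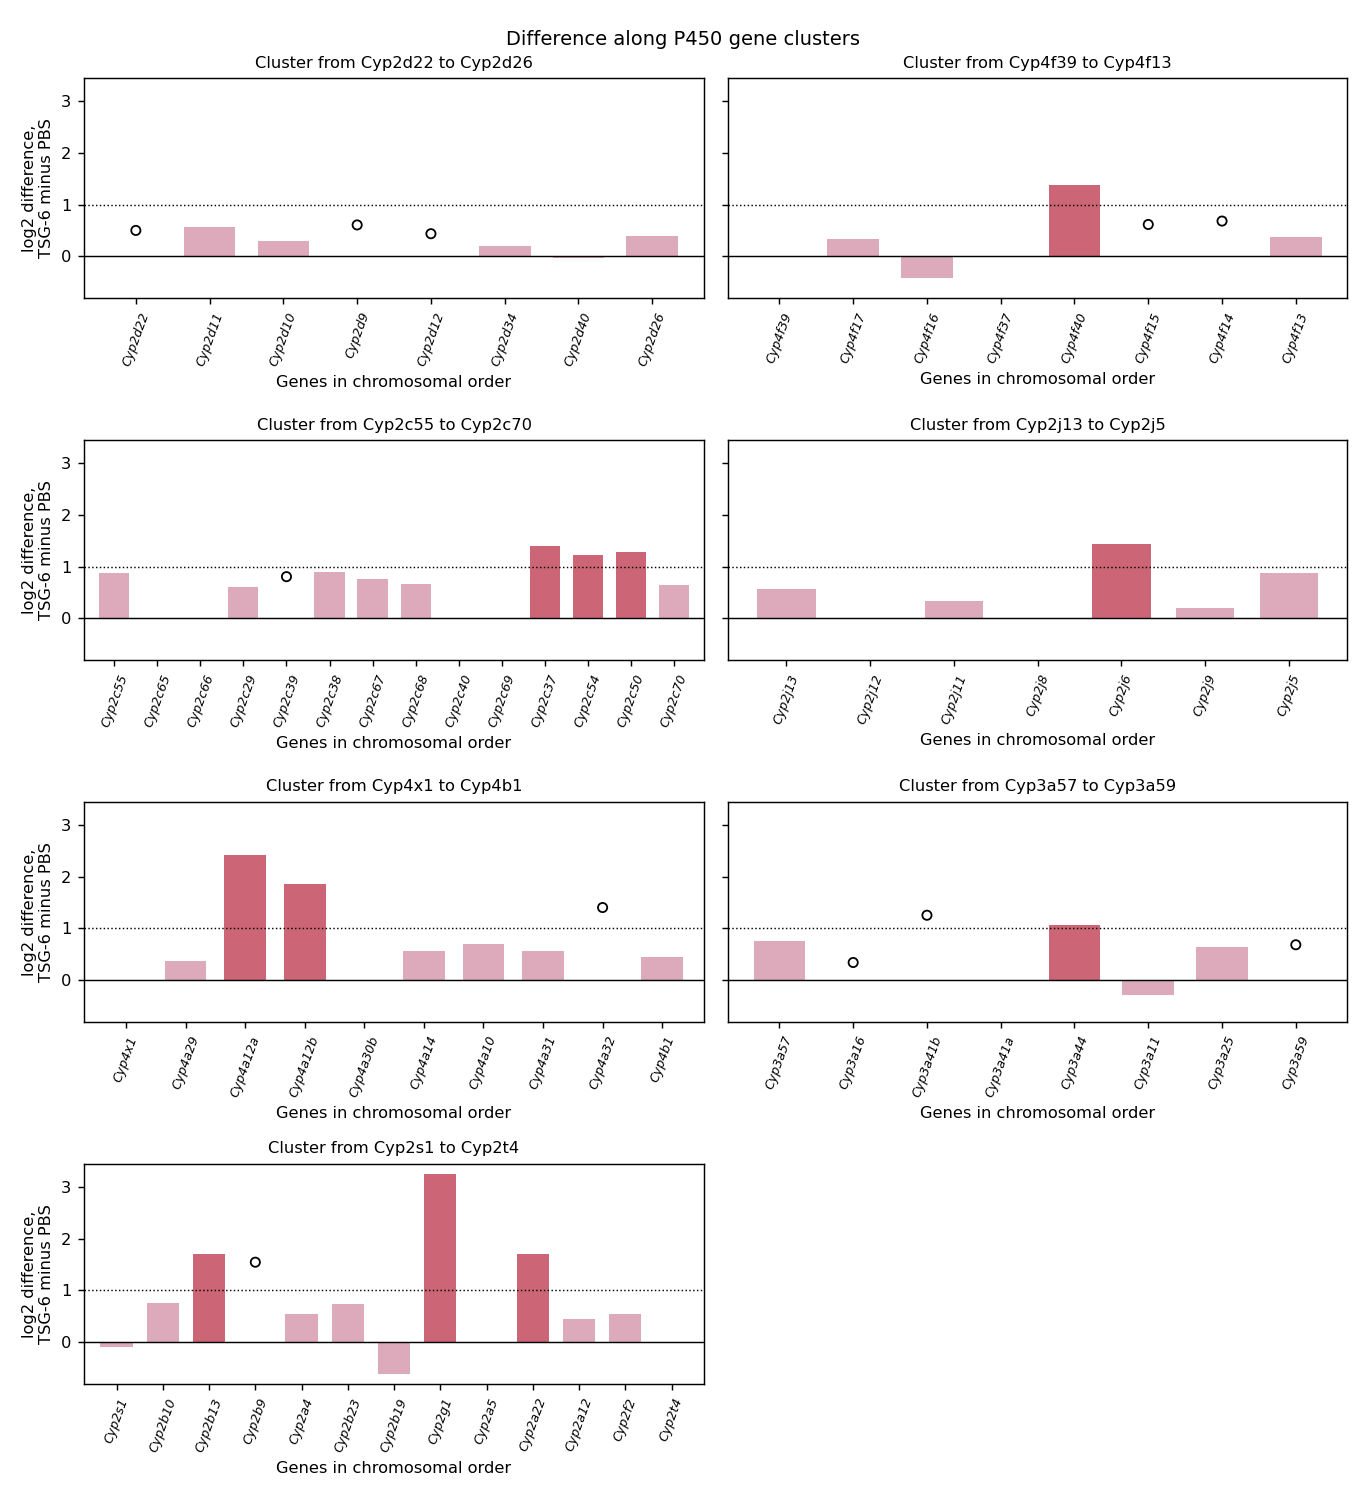
Log2 difference of TSG-6 minus PBS (bars, dark where at least 2-fold) for the P450 genes of 7 clusters in chromosomal order, evenly spaced, with open circles for genes read only from flagged spots and gaps for genes not measured. The adjacent Cyp2c37, Cyp2c54 and Cyp2c50 bars reach 1.22 to 1.39, and Cyp2b19 at -0.61 stands next to Cyp2g1 at 3.25.

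Several genes could be read from more than 1 probe, which shows how far the choice of probe matters. Of 14 genes with at least 2 probes above background on both arrays, flagged ones included, 1 had probes on both sides of 0 (Cyp3a11) and 7 had probes on both sides of the 2-fold line. In 5 genes the probes differed by over 1 on the log2 scale. Cyp2c38 was read as 0.89 by one probe (5.0 and 9.28) and as 2.66 by another (0.0180 and 0.113). Cyp2c54 was read as 1.22 by its unflagged probe, and as 1.76 and 2.55 by flagged ones. Cyp2c37 was read as 1.39, and as 0.59 by a flagged probe. Cyp4a31, Cyp2j6 and Cyp3a11 had ranges of 1.08, 1.01 and 1.26.

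**Figure D4:**
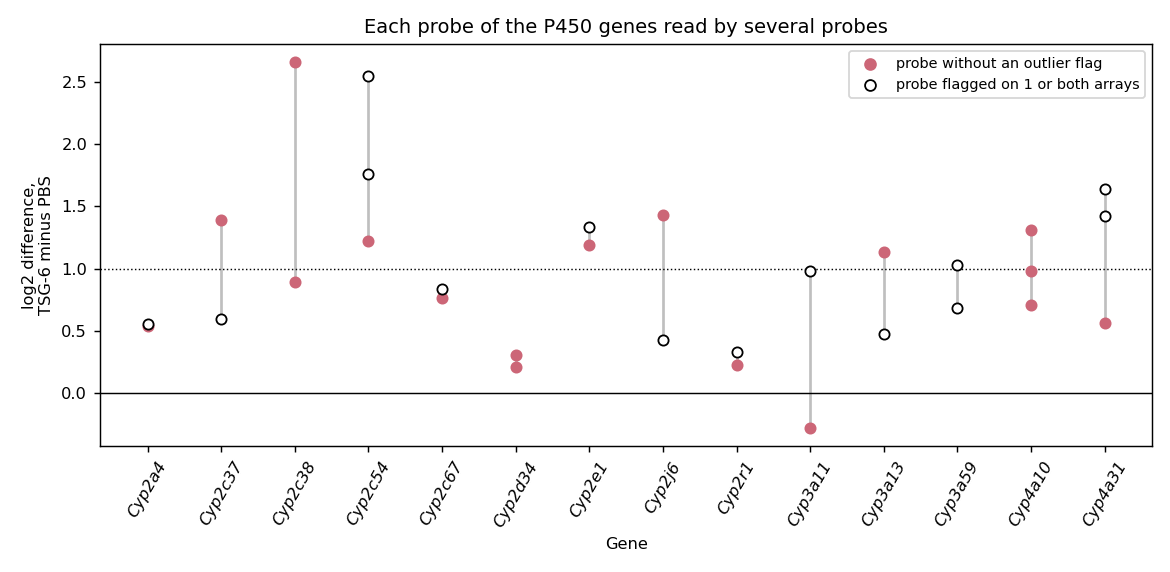
Log2 difference of TSG-6 minus PBS for each probe above background on both arrays (filled points, open where flagged on 1 or both arrays) of the 14 P450 genes with at least 2 such probes, with a dotted line at 2-fold. Probes of Cyp2a4, Cyp2c67, Cyp2d34, Cyp2e1 and Cyp2r1 lie close together, those of Cyp2c38 are 0.89 and 2.66, and those of Cyp3a11 fall on either side of 0.

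The 11 genes with only flagged spots were all above 0 when the flags were ignored. Their median was 0.68 and their range 0.34 to 1.55, and Cyp2b9, Cyp4a32 and Cyp3a41b were past 2-fold. With flagged spots kept on the whole array, 68 of the 75 genes were measured and 15 were at least 2-fold higher, against 2.97% of 16427 genes. Of the 14 genes past 2-fold in the main setting, 12 remained, and Cyp2j6 and Cyp3a13 did not.

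Promoters were searched for 12 short sequences over the 250 bases before the start, on both strands, in 66 of the 80 genes and in all 27025 genes of RefSeq's table. TATAAA, the letters of the TATA box, was found in 39.4% of the P450 genes and 14.3% of all genes. A match counted at any place in the 250 bases, such as 30 bases before the start in Cyp1a1 and 234 in Cyp3a11. These are therefore not shares of genes with a TATA box. CAAAGTCCA was found in 15.2% (10 of 66) and 0.451% (122 of 27025). The 10 carriers were 6 Cyp2c and 4 Cyp3a genes. Some are near copies, such as Cyp3a41a and Cyp3a41b (99.6% identical over the 250 bases) and Cyp2c68 and Cyp2c69 (92.8%). Shares over the P450 genes count such copies separately. None of the 10 promoters of genes past 2-fold, among the 14, held it, but only 4 of the 45 measured members with a promoter did. Those 4 differed by -0.28 to 0.76 with a median of 0.65. The -0.28 is that of Cyp3a11, whose flagged probe read 0.98. Another carrier, Cyp3a41b, read 1.26 on a flagged spot. With so few carriers, their absence among the 10 says little. CAAAG, the first 5 bases of that sequence and so counted with it too, was found in 83.3% of P450 genes and 52.2% of all genes.

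The other sequences searched were short enough to be common. AGGTCA, a nuclear receptor half-site, was found in 24.2% of the P450 genes and 15.8% of all genes. TGNCCT, a looser form that takes in AGGTCA on the other strand, was found in 72.7% and 54.8%. GTTAAT, a half-site of HNF1, was found in 15.2% and 7.49%. Factors that bind these sequences are active in hepatocytes. TGTTTAC, a forkhead sequence, was found in 13.6% and 3.54%, its variant TGTTTGC in 1.52% and 4.93%, and TTGCNNAA, a C/EBP sequence, in 21.2% and 10.8%. TTCNNNGAA, a STAT sequence, was found in 6.06% and 8.13%, CCAAT in 39.4% and 37.5%, and GCGTG, the core bound by the aryl hydrocarbon receptor, in 19.7% and 30.9%. A match here is a description of the letters and no evidence of binding.

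The partners and regulators of these enzymes had a lower median difference than the enzymes. Of 34 listed genes, 30 were measured, 2 were at least 2-fold higher and none at least 2-fold lower, with a median of 0.24. Among all measured genes, 2.94% were higher and 4.29% lower by as much. The electron donors, all 5 measured, had a median of 0.42, and Por, the P450 reductase, was at 11.2 and 16.3, a difference of 0.54. Genes of haem synthesis and breakdown, 8 of 9 measured, had a median of -0.04. Among receptors and factors, 17 of 20 were measured with a median of 0.39. The genes past 2-fold were Onecut1, a hepatocyte transcription factor, at 0.101 and 0.404 (3.99-fold), and Cux2, a factor known for its female bias in mouse liver, at 0.0493 and 0.193 (3.91-fold). The receptor CAR (Nr1i3) differed by 0.73, PPAR-alpha (Ppara) by 0.16 and HNF4 (Hnf4a) by 0.17. Nr0b2, the corepressor SHP, differed by -0.67.

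P450 genes outside families 1 to 4, which make bile acids and act on sterols, vitamins and prostanoids, served as the nearest comparison. Of 20 listed, 14 were measured, 5 were at least 2-fold higher and none lower, with a median of 0.82. The shares over all measured genes were 2.94% higher and 4.29% lower. The 5 were the bile acid enzymes Cyp8b1 (0.239 and 1.52, 6.34-fold), Cyp7a1 (1.55 and 5.82, 3.76-fold) and Cyp27a1 (1.38 and 3.85, 2.79-fold), the retinoic acid hydroxylase Cyp26a1 (2.11-fold) and the steroid hydroxylase Cyp21a1 (2.0-fold). In their lowest alternatives Cyp26a1 and Cyp21a1 fell under the 2-fold line, to log2 differences of 0.70 and 0.63. Cyp26b1 and Tbxas1, which are known outside the hepatocyte, differed by -0.88 and -0.84. The difference between this list and families 1 to 4 was not tested.

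The 14 genes past 2-fold did not all stand equally far from the line. Cyp2g1, Cyp4a12a, Cyp4a12b, Cyp2a22, Cyp2b13 and Cyp2c37 were past it in each of the 11 alternatives. The other 8 fell under it in at least 1. A flagged Cyp2c37 probe, which none of the alternatives read, gave 0.59. Just inside the line in the main setting were Cyp1a2 at 1.02 and Cyp3a44 at 1.08, and just outside were Cyp2c38 at 0.89 and Cyp2c55 and Cyp2j5 at 0.87. Of the 9 members below 0, Cyp1a1, Cyp2u1, Cyp2b19, Cyp4f16 and Cyp4f18 stayed there in every alternative. Cyp1a1 came past 2-fold lower with median scaling (-1.01) and spike-in scaling (-1.27), and Cyp2u1 with spike-in scaling (-1.15).

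**Figure D5:**
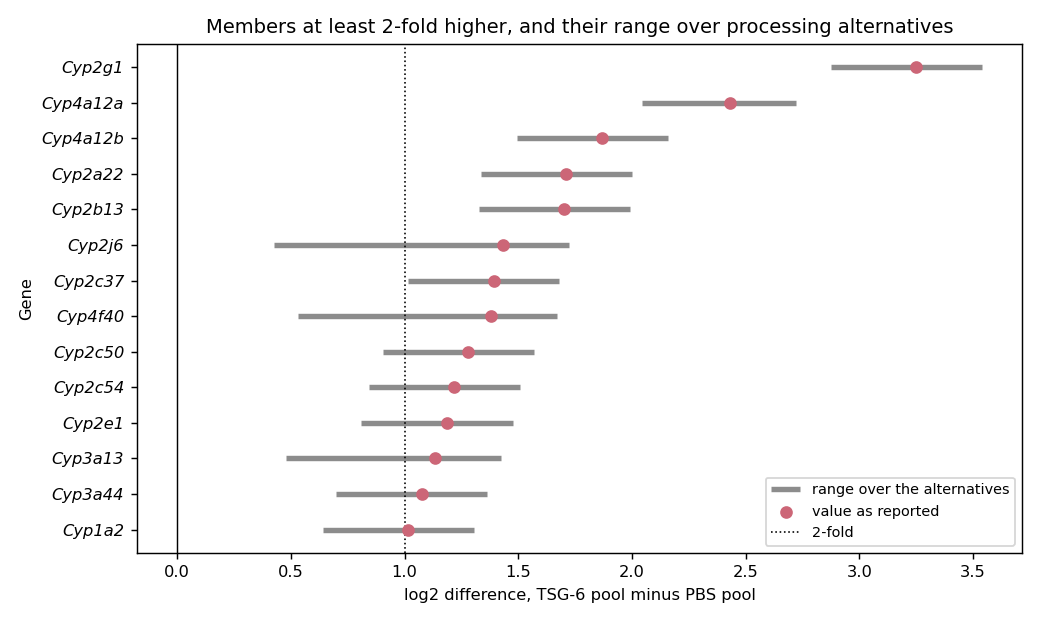
Log2 difference of TSG-6 minus PBS for the 14 P450 genes at least 2-fold higher (points) with the range over the processing alternatives (grey bars) and a dotted line at 2-fold. The whole bar lies past the line for Cyp2g1, Cyp4a12a, Cyp4a12b, Cyp2a22, Cyp2b13 and Cyp2c37, and the bar of Cyp2j6 reaches down to 0.42.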

How the data were processed

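Liver RNA of 2 groups, PBS and TSG-6, each a pool of 3 mice, was measured on 1 Agilent one-colour array per group, 2 arrays in all on 1 slide. The labels' protocols state 0.2 ug of RNA as input for the Cy3 label. Each spot's intensity was deposited as a processed signal, background-subtracted and detrended by Feature Extraction, version 11.5.1.1 per the file headers and 10.7 per the submitters' processing notes. The headers name the mm9 build. The deposited value table holds log2 values, each equal to log2 of the processed signal minus 1 constant per array within 0.001 for 100% of single-spot probes, with column medians of -3.90 (PBS) and -3.77 (TSG-6).

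Log2 signals were set relative to each array's 75th percentile over non-control spots, which was 3158 (PBS) and 2476 (TSG-6). Control spots and those carrying either of the software's 2 outlier flags (non-uniform, population) were left out. A probe counted as above background if the software called 50% or more of its spots well above it, and 73.1% (PBS) and 73.9% (TSG-6) of unflagged spots were. A gene with several probes was read from the one above background on most arrays and then with the highest mean signal. Probes were named through their RefSeq accession and RefSeq's GRCm38.p6 gene table, which matched 26762 of 55681 non-control probes, 95 of them probes of these families. Promoter sequences are RefSeq's, of the same assembly.

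With 1 array per group no test was run and no p-value is given. Genes at least 2-fold different were counted, beside the share over all measured genes. Every member is accounted for, and those named with values are the ones at least 2-fold different, above background on 1 array, brightest of a subfamily, in a role group or with disagreeing probes. The members, gene lists and rules were chosen with earlier results of these data known. The 11 alternatives varied the scaling (percentile over unflagged spots or detected probes, median, quantile, spike-in), the background (normexp with an offset of 50, on the median signal because the files used here hold no mean signal column), the filter, the flags, the choice of probe and the source (the deposited table). The calculation was checked on simulated data. Python 3.11.15, pandas 2.3.3, numpy 2.4.6, biopython 1.88 and R 4.3.3 with limma 3.58.1 were used.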

Additional observations from a re-analysis of the deposited data

How the results depend on the processing

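The count of P450 genes at least 2-fold higher was 14 and lay between 11 and 21 over 10 of the 11 alternatives; under spike-in scaling it was 8, with 2 at least 2-fold lower and a median difference of 0.19. The median over the members was 0.86 with the percentile taken over unflagged spots and 0.37 with quantile normalization. Against 0 genes at least 2-fold lower in the main setting, median scaling gave 1 (Cyp1a1) and dropping the filter on dim probes gave 2 (Cyp2c66 and Cyp2j8, read from probes above background on neither array; a flagged Cyp2j8 probe above it on both gave 0.45). Scaling shifted the median of all genes, by 0.29 with unflagged spots, -0.11 with median scaling, -0.10 with quantile normalization and -0.38 with spike-ins. The share of higher genes among all genes past 2-fold was 40.7% in the main setting, 73.0%, 29.5%, 33.1% and 11.7% in those 4, so counts in 1 direction rest on the scaling. It was 48.7% without the filter. The median of the members minus that of all genes ran from 0.39 to 0.51. Alternatives that shift all genes of an array by a constant, such as median and spike-in scaling, could not change it. None of the 14 genes past 2-fold in the main setting changed sign. No paired analysis was possible because each group is 1 array, and no array could be left out for the same reason. With 1 pool a group, the spread between mice is unknown, dim and flagged spots limit the precision of single genes, and close copies may share signal.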

Other observations

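Pseudogenes of the same families, which the gene set leaves out, had 4 probes, of which 3 gave a value. Cyp2d37-ps was at a relative signal of 2.41 in PBS and 4.03 in TSG-6, a log2 difference of 0.74. Cyp4b1-ps2 was at 0.0166 and 0.0317, a difference of 0.93, and Cyp4f41-ps at 0.0259 and 0.0180, a difference of -0.53. None of the 3 was past 2-fold, and Cyp2d13 had only flagged spots.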
